A study of Mus musculus with 11 samples.

Results

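Liver signals of 10 cytoskeleton genes are described here: the actins Actb and Actg1, the actin-binding genes Tmsb4x, Tmsb10, Pfn1, Cfl1 and Vil1, and the tubulins Tubb2a, Tubb5 and Tuba1c. Members were all probe sets whose platform gene symbol was one of these names, 17 of the 22690 probe sets on the array, and with 1 symbol each they stood for 9 of the 12393 genes so annotated. The genes were chosen by the signals of the manufacturer's actin controls, which had been seen to be higher in some groups of these same arrays. Differences between groups are therefore given for the members as a description, with a standard error, and counts of members past a threshold of the fit over all probe sets stand only beside the same share of all probe sets. Of the 17 probe sets, 14 from 8 genes were bright enough to enter the fit, and 3 were not, among them the single probe set of Vil1. Tuba1c had 2 probe sets that the annotation shares with Gm6682, so no value is assigned to it.

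The data came from livers of 11 male mice of a mixed background, 1 oligonucleotide array per mouse. The first group was wild type on the normal diet (CN, n = 3) and the second wild type on a high-fat diet (CH, n = 4). The third carried the Akt1 double transgene (DH, n = 4) and was fed the high-fat diet. All 3 groups, controls included, received doxycycline for 3 weeks, and muscle hypertrophy is marked for the double transgenic mice alone. The promoter that drives the transgene and the age of the mice are not given in the sources used here, and transgenic mice on the normal diet were not analysed here. The comparisons of CH with CN and of DH with CN share the CN arrays, and those of CH with CN and of DH with CH share the CH arrays.

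Actin monomers assemble into filaments that shape the cell cortex, and in hepatocytes they form the web under the bile canaliculus and its microvilli. Thymosins hold monomers in reserve, profilin hands them to growing filament ends, cofilin severs old filaments and villin bundles filaments in microvilli. Alpha- and beta-tubulin pair into microtubules, the tracks along which hepatocytes move secretory vesicles. Transcription of many actin genes is driven by serum response factor (SRF), which binds a DNA element called the CArG box, and free actin monomer in turn restrains a cofactor of SRF. Actin genes are widely used as reference genes, which is why the array carries actin controls.

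Windows from 250 bases before to 50 after the annotated start, from RefSeq (GRCm38.p6), were at hand for 9 of the 10 members, all except Actb. A CArG box, searched on both strands, lay in the windows of Actg1 and Vil1, 2 of 11 member windows, against 1.63% of the 32851 windows of all genes. The Actg1 box began at position -90 and the Vil1 box at -73, counted from the annotated start. The motif TATAAA, on either strand, was found in 1 member window, that of Tubb2a at position -29, against 13.6% of all windows. The motif GGGCGG, on either strand, was found in 10 of the 11 member windows and in 35.7% of all windows. The stretches around the CArG boxes and the TATAAA are shown because few windows hold these elements, with the CArG box or the TATAAA in capitals. Actg1 is at chr11:120348526-120348625 on the minus strand, Vil1 at chr1:74409254-74409353 on the plus strand and Tubb2a at chr13:34078009-34078138 on the minus strand.
Actg1: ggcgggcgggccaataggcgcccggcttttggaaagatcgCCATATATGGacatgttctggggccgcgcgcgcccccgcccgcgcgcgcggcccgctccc
Vil1: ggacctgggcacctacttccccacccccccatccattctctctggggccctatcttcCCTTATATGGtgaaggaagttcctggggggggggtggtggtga
Tubb2a: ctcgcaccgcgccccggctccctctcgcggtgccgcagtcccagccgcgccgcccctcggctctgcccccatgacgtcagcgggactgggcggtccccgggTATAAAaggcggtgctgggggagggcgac

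Values are MAS5 signals on a linear scale. Each array had a mean between 500.251 and 500.285 after trimming 2% at each end, and median signals ran from 97.2 to 118. Transgenic array 3 stood apart: its mean signal over 27 poly-A spike probe sets was 113, against 277 to 468 on the other 10 arrays. Transgenic arrays 3 and 4 also had the highest top signals, 42426 and 43273, against 27780 to 35450 elsewhere. The tissue label was checked against markers: the 6 hepatocyte markers on the array had signals of at least 6713 on every array, and the 8 skeletal muscle markers, Acta1 and Ckm among them, lay below the limit for dim probe sets in mean signal and reached at most 103. With 3 or 4 arrays a group, precision is limited by their number.

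Actg1, cytoplasmic gamma-actin, had the largest gap between diets among the actins. Its probe set (1415779_s_at) read 2252, 2578 and 3222 (CN), 4200, 4428, 5667 and 3471 (CH) and 3863, 3483, 8752 and 3790 (DH). Every high-fat array, wild type or transgenic, lay above every normal-diet array, and transgenic array 3 lay far above all others. The mean was 2684 ± 494 (SD, n = 3) in CN and 4441 ± 913 (SD, n = 4) in CH, a log2 difference of 0.72 ± 0.28 (SE), or 1.65-fold. Between DH and CH the log2 difference was 0.07 ± 0.26 and the arrays overlapped. Without transgenic array 3 that difference was -0.24 and without CH array 4 it was -0.04, whereas the difference between DH and CN was 0.79 ± 0.28 with it and 0.48 without it.

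Actb, cytoplasmic beta-actin, had 2 probe sets in the fit, and their differences from CN had opposite signs. The brighter (1436722_a_at) read 13951, 12949 and 16235 (CN), 15165, 15490, 18112 and 14676 (CH) and 14730, 16504, 21590 and 18591 (DH). All 3 groups overlapped, with transgenic array 3 again the highest. Its log2 difference was 0.14 ± 0.13 for CH minus CN, 0.16 ± 0.12 for DH minus CH and 0.30 ± 0.13 for DH minus CN. The dimmer (1419734_at) read 1520, 1379 and 1453 (CN), 1328, 1178, 1195 and 1164 (CH) and 1177, 1230, 1227 and 1260 (DH). Here every high-fat array lay below every normal-diet array, by a log2 difference of -0.25 ± 0.09 for CH minus CN and -0.24 ± 0.09 for DH minus CN, and CH and DH overlapped (0.01 ± 0.08).

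The manufacturer's actin controls, which target the 5′, middle and 3′ parts of the Actb transcript and whose values prompted the choice of genes, are given apart. The middle control had a mean of 9018 ± 693 (SD, n = 3) in CN, 11344 ± 411 (SD, n = 4) in CH and 11839 ± 1438 (SD, n = 4) in DH. The 5′ control had 7660 ± 593, 9407 ± 704 and 10454 ± 1657, and the 3′ control 12810 ± 1339, 14922 ± 775 and 16291 ± 2140, in the same order. At the 5′ and middle controls every high-fat array was above every normal-diet array, and at the 3′ control CH and CN overlapped. The log2 differences for CH minus CN were 0.30 (5′), 0.33 (middle) and 0.22 (3′), against 0.14 and -0.25 at the other Actb probe sets. The ratio of the 3′ to the 5′ control, a common measure of RNA integrity, was 1.67 ± 0.06 (SD, n = 3) in CN, 1.59 ± 0.07 (SD, n = 4) in CH and 1.56 ± 0.08 (SD, n = 4) in DH, and its part in these differences was not tested. Within each array the brighter Actb probe set was 9.18 to 11.2 times the dimmer one in CN, 11.4 to 15.2 times in CH and 12.5 to 17.6 times in DH, so the probe sets of this gene did not move in proportion. The Gapdh controls differed less between diets, with log2 differences for CH minus CN of 0.05 (5′), 0.03 (middle) and 0.00 (3′). For DH minus CN the Gapdh differences were 0.14, 0.23 and 0.17, with the middle control higher on each DH array than on any CN array, against 0.44, 0.39 and 0.34 at the actin controls.

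**Figure D1:**
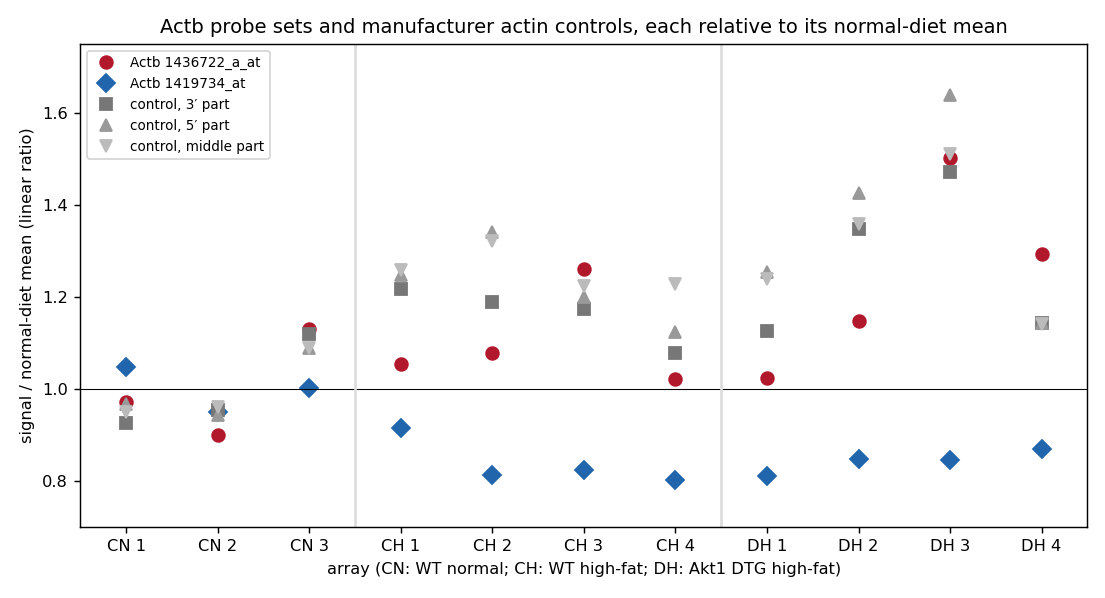
Signal of each Actb probe set and manufacturer actin control on each of the 11 arrays, divided by its own normal-diet mean (y axis, linear ratio; x axis, arrays by group). The controls and the brighter probe set lie at or above 1 on the high-fat arrays and peak on DH 3, while the dimmer probe set lies below 1 on all 8 high-fat arrays.

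Tmsb4x and Tmsb10 encode the beta-thymosins, small peptides that bind actin monomers. Tmsb4x (1415906_at) read 2412, 2788 and 2954 (CN), 3385, 5753, 2133 and 2766 (CH) and 3930, 6252, 2406 and 3519 (DH). Arrays 2 of both high-fat groups stood out, array 3 of each was the lowest of its group, and all groups overlapped. The log2 difference was 0.27 ± 0.33 for CH minus CN and 0.21 ± 0.30 for DH minus CH, both smaller than their errors. Without CH array 2 the first was 0.00, and without DH array 2 the second was -0.03. For DH minus CN it was 0.49 ± 0.33, with 0.25 without DH array 2 and 0.87 without transgenic arrays 3 and 4.

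Tmsb10 had 4 probe sets in the fit and 1 too dim for it. The brightest (1437185_s_at) read 625, 983 and 1137 (CN), 982, 1944, 843 and 831 (CH) and 1059, 1616, 966 and 1080 (DH), again with arrays 2 of both high-fat groups at the top. Its log2 difference was 0.28 ± 0.30 for CH minus CN and 0.10 ± 0.28 for DH minus CH, and without CH array 2 the first was -0.01. The next 2 probe sets, 1417219_s_at and 1436902_x_at, had 0.19 ± 0.25 and 0.35 ± 0.32 for CH minus CN. The fourth, 1455946_x_at, differed from them: it read 94.9, 63.9 and 70.0 (CN), 145, 138, 119 and 110 (CH) and 101, 96.4, 118 and 150 (DH), with no high-fat array as low as any array of the normal diet. Its log2 difference was 0.76 ± 0.22 for CH minus CN, 1.69-fold, and 0.61 ± 0.22 for DH minus CN. The dim probe set, 1436682_at, stayed between 14.5 and 62.8 on all arrays.

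Pfn1, the profilin gene, read 3188, 3449 and 2887 (CN), 4009, 3789, 3311 and 3008 (CH) and 3801, 3283, 3513 and 3557 (DH). The groups overlapped, and its log2 difference was 0.15 ± 0.11 for CH minus CN and 0.01 ± 0.11 for DH minus CH. Cfl1, the cofilin gene of non-muscle cells, had 2 probe sets with like differences between diets. The brighter (1455138_x_at) read 2722, 2994 and 2760 (CN), 3330, 3590, 2899 and 3455 (CH) and 3566, 3286, 3792 and 3365 (DH), so that each transgenic array and 3 of the 4 CH arrays were above every normal-diet array. It differed by 0.23 ± 0.10 for CH minus CN and 0.31 ± 0.10 for DH minus CN. The dimmer (1448346_at) read 1158, 1064 and 1084 (CN), 1470, 1324, 1176 and 1375 (CH) and 1377, 1253, 1293 and 1065 (DH), with all CH arrays above all CN arrays and 0.27 ± 0.11 between them. For DH minus CH the probe sets had opposite signs, 0.08 ± 0.09 and -0.10 ± 0.11.

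Vil1, the villin gene, was close to the floor of the measurement. Its 1 probe set read 1.2 to 2.4 (CN), 4.6 to 15.4 (CH) and 1.9 to 28.7 (DH), with a geometric mean of 5.13 against the limit of 58.2 for dim probe sets. CH lay above CN without overlap and DH overlapped both, but no fold is given for values this low. The CArG box in its promoter window, shown above, therefore stands beside no usable liver signal.

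The beta-tubulin Tubb2a had the widest spread among the members in the fit. Its brighter probe set (1427347_s_at) read 642, 584 and 2029 (CN), 354, 370, 295 and 301 (CH) and 215, 427, 1891 and 381 (DH). Array 3 of the normal diet and array 3 of the transgenic group stood far above the others of their groups, and every CH array lay below every CN array. The mean was 1085 ± 818 (SD, n = 3) in CN, 330 ± 37.6 (SD, n = 4) in CH and 728 ± 780 (SD, n = 4) in DH. The log2 difference was -1.47 ± 0.60 for CH minus CN and -0.90 without CN array 3, and for DH minus CH it was 0.63 ± 0.56 and -0.01 without DH array 3. For DH minus CN it was -0.85 ± 0.60, with -0.27 without CN array 3 and -1.48 without DH array 3. The other probe set of Tubb2a, too dim for the fit, read 48.8, 30.9 and 50.9 (CN), 2.1, 34.3, 9.5 and 5.5 (CH) and 36.0, 27.7, 46.2 and 19.4 (DH), and its groups overlapped.

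Tubb5, the main beta-tubulin of dividing and many other cells, was also at lower levels on the high-fat diet in wild-type mice. Its brighter probe set (1416256_a_at) read 703, 785 and 961 (CN), 366, 814, 552 and 454 (CH) and 819, 681, 826 and 545 (DH). Of the CH arrays 3 lay below the lowest CN array and 1 did not, and DH spanned both ranges. The log2 difference was -0.63 ± 0.24 for CH minus CN, 0.44 ± 0.22 for DH minus CH and -0.19 ± 0.24 for DH minus CN. The dimmer (1455719_at) had the same signs, at -0.36 ± 0.23, 0.11 ± 0.21 and -0.25 ± 0.23, with overlap throughout.

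**Figure D2:**
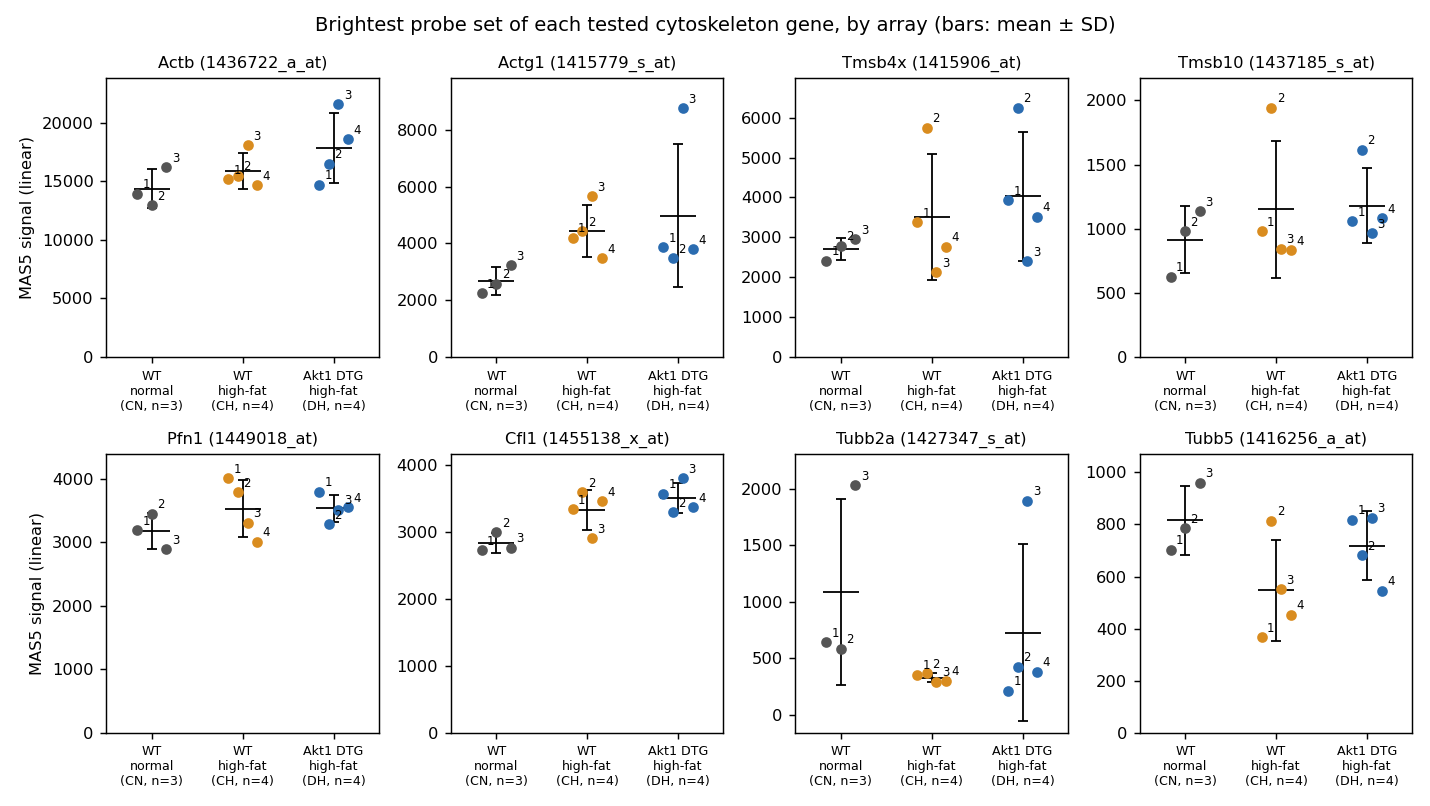
MAS5 signal (y axis, linear, from 0 or below) of the brightest probe set of each of the 8 genes in the fit, by group (x axis), with 1 point per array numbered by replicate and bars for mean ± SD. Actg1 is higher in both high-fat groups, Tubb2a is high on array 3 of CN and of DH, and Tmsb4x and Tmsb10 are high on array 2 of CH and of DH.

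Over the 14 probe sets, 10 had a log2 difference above 0 for CH minus CN, where 49.9% of all probe sets did, and 4 below, namely the tubulins and the dimmer Actb probe set, with a median of 0.21 where the median of all 12228 probe sets tested was 0.00. Limma called 0 of the 14 at an adjusted p of 0.05, where it called 0% of all probe sets, and 7 of the 14 had an unadjusted p under 0.05, against 7.02% of all. The 2 groups did not overlap at 3 probe sets with higher and 2 with lower signal in CH, where 4.38% and 3.55% of all probe sets did so, 7.93% together. For DH minus CH 10 of 14 were above 0 (51.3% of all) and the median was 0.08 against 0.01 for all probe sets. Limma called 0 of 14 there (0.409% of all) and 0 had an unadjusted p under 0.05 (13.8% of all). The DH and CH arrays overlapped at all 14, where 4.54% of all probe sets were higher and 3.88% lower without overlap, 8.42% together. For DH minus CN 9 of 14 were above 0 (50.8% of all) and the median was 0.24 against 0.01. Limma called 0 of 14 (1.95% of all), and 5 had an unadjusted p under 0.05 (17.9% of all). The DH and CN arrays did not overlap at 3 higher (8.29% of all) and 1 lower (7.03% of all), 15.3% of all together. Nothing is read from these counts, since the genes were picked with these arrays in view. A letter s or x in a probe set name marks probes that the manufacturer lists as shared with other transcripts, so signal from near-identical actin, tubulin, thymosin or cofilin copies may be included and was not tested.

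**Figure D3:**
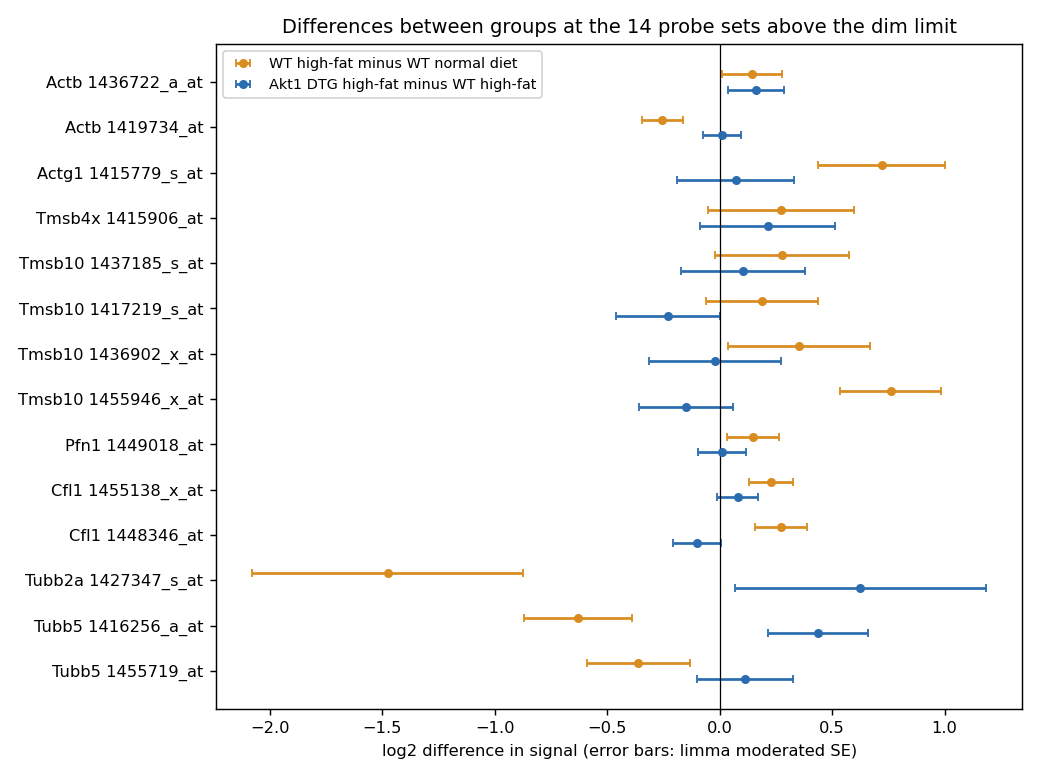
Log2 difference in signal (x axis) with limma's moderated SE at each of the 14 probe sets (y axis), for wild-type high-fat minus normal diet (orange) and transgenic minus wild-type high-fat (blue). The orange points of the tubulins and of Actb 1419734_at lie left of 0 and the other orange points right of it, while the blue points farthest from 0 are those of Tubb2a and of the brighter Tubb5 probe set.

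Within groups 2 sets of members went together. The first held the brighter Actb probe set, Actg1 and Tubb2a, and the second held Tmsb4x and the 3 brighter Tmsb10 probe sets. Both are described by Pearson's r over the 11 arrays after each group's mean log2 signal was subtracted, and without a test. The brighter Actb probe set went with Actg1 (r = 0.81, Spearman's rank correlation 0.67) and with Tubb2a (r = 0.81, rank correlation 0.67). Actb and Actg1 rested in part on the high transgenic array 3: without it r was 0.70, and without that array and CH array 3, the farthest from the median, it was 0.55. For Actb and Tubb2a r was 0.69 without transgenic array 3, and 0.82 without the same 2 arrays, with CN array 3, where Tubb2a was highest, still included. For Actg1 and Tubb2a r was 0.805 (rank correlation 0.54), with 0.55 without transgenic array 3 and 0.69 without the same 2 arrays. Tmsb4x went with the 3 brighter Tmsb10 probe sets (r = 0.86, 0.91 and 0.87). Without CH array 2 and DH array 3, the farthest from the median for Tmsb4x, these were 0.81, 0.87 and 0.86. DH array 2, the highest of its group for Tmsb4x and for these Tmsb10 probe sets, was still included. Between the sets r was -0.50 for Actb with Tmsb4x and -0.52 for Actg1 with Tmsb4x, and without CH array 3 and transgenic array 3 these were -0.00268 and 0.13. Pfn1, both Cfl1 and both Tubb5 probe sets were placed in neither set, but the split was not sharp for Tubb5. Pfn1 had r = -0.33 with Actb and 0.21 with Tmsb4x. The dimmer Tubb5 probe set had r = 0.52 with Tmsb4x, 0.65 with Tmsb10 1417219_s_at and -0.82 with Tmsb10 1455946_x_at. The brighter Tubb5 probe set had r = 0.28 with Tmsb4x, 0.57 with Tmsb10 1437185_s_at and 0.42 with Actg1. The 2 Actb probe sets had r = 0.22 with each other, and the fourth Tmsb10 probe set had r from -0.39 to -0.20 with the other 3. The dimmer Actb probe set had r = -0.025 with Actg1 and 0.17 with Tubb2a. All points share the array, so whatever differs between arrays is shared by both genes of a pair.

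Among 7763 other genes, those most like the brighter Actb probe set by the same measure over 11 arrays were Nudt9 (r = 0.96), Sap30bp (0.93), Phax (0.93), Timm8b (0.92) and Ambp (0.91). Those most like Tubb2a were Plin2 (0.94), which coats lipid droplets, Dnajc15 (0.94), Irf3 (0.93), Psma1 (0.93) and the beta-tubulin Tubb4b (0.93). For Tmsb4x, a search added after the data were seen, they were Serpinh1 (0.96), Sdcbp (0.96), the alpha-tubulin Tuba1a (0.95), Mef2d (0.95) and Wasf2 (0.95), a subunit of the WAVE complex that starts branched actin filaments. With this many genes searched over 11 arrays, such values are a ranking and nothing more.

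Thymosins are abundant in blood cells, so the 13 leukocyte and Kupffer cell markers, such as Ptprc, Cd68 and Adgre1, are given beside them. All 13 were bright enough for the fit, and their summed signal was 4343 to 6015 in CN, 4885 to 12095 in CH and 6437 to 15431 in DH. Coro1a, counted among them throughout, read 33.5 to 58.2 in CN, at or under the limit of 58.2 for dim probe sets. It passed that limit through arrays of the high-fat groups. The highest sums, 12095 and 15431, were on CH array 2 and DH array 2, the arrays with the highest Tmsb4x, and the lowest of each high-fat group, 4885 and 6437, were on array 3, where Tmsb4x was lowest. In CN this did not hold: the highest sum, 6015, was on array 1, where Tmsb4x was lowest (2412). Actg1 did not follow the order of the sums in the high-fat groups: its highest signal in each of these was on array 3. Of these markers 12 of 13 were above 0 for CH minus CN (49.9% of all probe sets), 12 of 13 for DH minus CH (51.3%) and 13 of 13 for DH minus CN (50.8%). Their median log2 differences were 0.50, 0.38 and 0.88. Limma called 0, 0 and 1 of them, against 0%, 0.409% and 1.95% of all probe sets. The 1 called was the macrophage gene Cd5l (2.02 ± 0.45, limma adjusted p = 0.0441). In the same order 1, 0 and 9 had an unadjusted p under 0.05, against 7.02%, 13.8% and 17.9% of all. The call of Cd5l held in 9 of 19 alternatives (adjusted p 0.0236 to 0.158) and was lost without any 1 of CN arrays 1 to 3, CH arrays 1 and 4 or DH arrays 1, 2 and 4. The part of these cells in the thymosin signals was not tested, and in whole liver more cells of a type cannot be told apart from more RNA per cell.

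**Figure D4:**
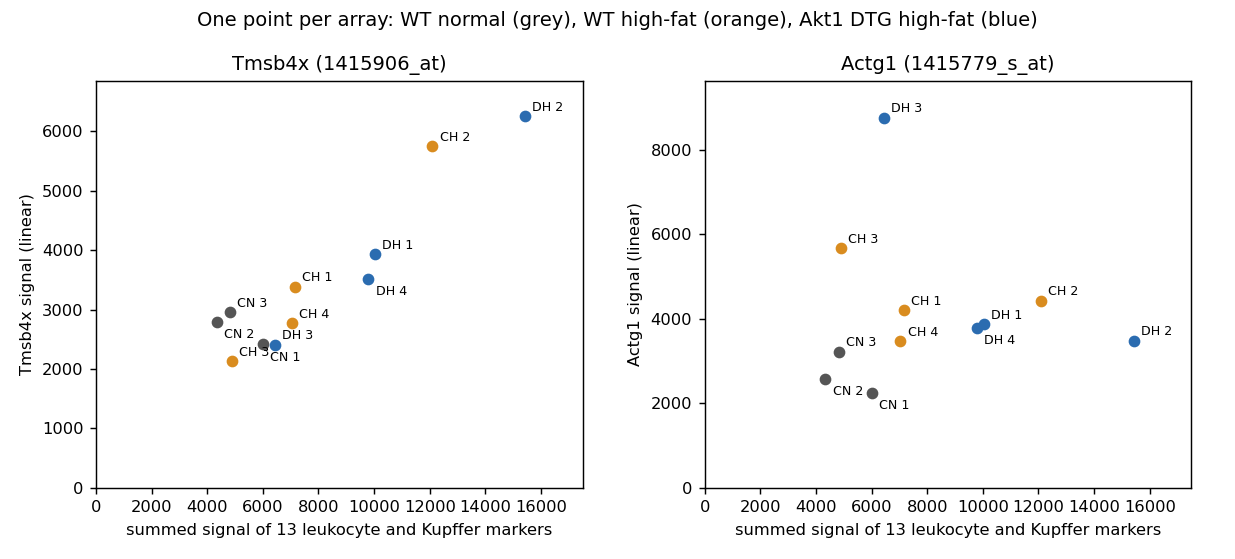
Signal of Tmsb4x (left) and Actg1 (right) on the y axis against the summed signal of 13 leukocyte and Kupffer cell markers on the x axis (both linear), 1 point per array, coloured by group. Tmsb4x is highest on CH 2 and DH 2, the arrays with the highest marker sums, while Actg1 is highest on DH 3 and CH 3, which have low sums.

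Stellate and fibroblast markers were also highest on array 2 of each high-fat group, with summed signals of 5929 to 6065 in CN, 5550 to 10171 in CH and 5735 to 6818 in DH over 10 of 13 markers, and Tagln, Des and Col1a1 were dim. Limma called 0 of these 10 for CH minus CN, DH minus CH and DH minus CN, against 0%, 0.409% and 1.95% of all probe sets. In the same order 2, 2 and 0 had an unadjusted p under 0.05, against 7.02%, 13.8% and 17.9% of all. Endothelial markers had sums of 3315 to 4448 in CN, 3172 to 3912 in CH and 3806 to 4729 in DH over 7 of 7, and of the 6 bile duct markers 5 (Krt7, Krt19, Epcam, Sox9 and Cldn7) were dim. The other bile duct marker, the keratin gene Krt23, read 57.6, 24.4 and 62.3 (CN), 161, 192, 206 and 82.6 (CH) and 113, 123, 254 and 50 (DH). Like Actg1 it was higher on every CH array than on any CN array, highest on array 3 of both high-fat groups and lowest in CH on array 4. Unlike Actg1, Krt23 overlapped between DH and CN, and its lowest DH signal was on array 4 and not on array 2. Its log2 difference was 1.77 ± 0.51 for CH minus CN and 1.38 ± 0.51 for DH minus CN, which limma did not call (adjusted p = 0.528 and 0.185). Krt23 signals of 57.6 and 24.4 in CN lay under the limit of 58.2 for dim probe sets, which it passed through its high-fat arrays. The filter thus favoured a higher signal on the high-fat diet, and these differences are only a description. The summed hepatocyte markers were 111377 to 132619 in CN, 127334 to 143478 in CH and 134677 to 176447 in DH, with the highest sums on transgenic arrays 3 and 4. The part of these cell types in the actin and tubulin values was not tested.

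The wider cytoskeleton was read from 10 lists of 171 genes, of which 125 could be tested by their brightest probe set. Limma called 0 of them for CH minus CN, and 9 (7.20%) had an unadjusted p under 0.05, against 7.02% of all probe sets. For DH minus CH it called 0, and 16 (12.8%) had an unadjusted p under 0.05, against 13.8% of all. For DH minus CN it called 2, or 1.60% against 1.95% of all, and 28 (22.4%) had an unadjusted p under 0.05, against 17.9% of all. Both calls were lower in DH, as were 0.679% of all probe sets, and 0 were higher, against 1.28% of all. The median log2 difference over the 125 genes was -0.01, 0.03 and 0.03. The shares of all are over 12228 probe sets, whereas each list or marker gene counts by 1 probe set. In the fit of 1 probe set per gene, limma called 0 of 7771 for CH minus CN, 28 for DH minus CH and 164 for DH minus CN.

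Tuba4a, an alpha-tubulin, was 1 of the 2 genes called. It read 5128, 5710 and 7782 (CN), 4432, 4250, 4545 and 4106 (CH) and 3526, 3193, 4890 and 3010 (DH), so that every array of either high-fat group was below every normal-diet array. It fell by 0.77 on the log2 scale in DH against CN (SE 0.17, limma adjusted p = 0.0433), and a second probe set fell by 0.93 (SE 0.20, adjusted p = 0.0359). For CH minus CN it had -0.50 ± 0.17, which did not pass (adjusted p = 0.600). The call held in 6 of 19 alternatives, with adjusted p from 0.0179 to 0.140. It was lost without any 1 of CN arrays 1 to 3, CH arrays 1, 3 and 4 or DH arrays 1, 2 and 4 (adjusted p 0.0521 to 0.140), most of all without CN array 3, the array also high for Tubb2a.

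Among the other tubulins 5 of 15 could be tested, and 4 of these 5 lay below 0 for CH minus CN and for DH minus CN, with medians of -0.47 and -0.68. Of all probe sets 49.9% and 50.8% lay above 0 in these comparisons. Tubb4b had -0.49 ± 0.28 and -0.75 ± 0.28 at its brighter probe set, which like Tubb2a was highest on array 3 of CN and of DH. At its dimmer probe set, where the groups overlapped, it had -0.09 ± 0.33 and -0.36 ± 0.33. Gamma-tubulin Tubg1, which seeds microtubules, had -0.32 ± 0.17 and -0.29 ± 0.17. Tubg1 and Tuba4a were also highest on array 3 of CN and of DH, so these tubulins are not independent readings. Tubd1 had -0.47 ± 0.33 and -0.68 ± 0.33. The exception was Tuba1a, at 0.06 ± 0.49 and 0.17 ± 0.49, with 367 on CH array 2 and 410 on DH array 2 against 95.5 to 172 on the other arrays. Apart from Tuba4a none passed. Microtubule-associated proteins and tubulin-folding cofactors had 0 of 22 called in each comparison, with medians of -0.02 for CH minus CN, 0.01 for DH minus CH and 0.08 for DH minus CN. Their smallest p for DH minus CN belonged to Clasp2 (-0.58 ± 0.15) and the tubulin cofactor Tbca (-0.40 ± 0.12).

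Gsn, the gelsolin gene, whose product severs and caps actin filaments, was the other gene called. It read 465, 466 and 516 (CN), 404, 604, 379 and 422 (CH) and 327, 191, 269 and 244 (DH), so that each transgenic array was below each array of the other groups. It fell by 0.93 on the log2 scale in DH against CN (SE 0.20, limma adjusted p = 0.0354), and for DH minus CH it had -0.81 ± 0.18, which did not pass (adjusted p = 0.0811). The call held in 8 of 19 alternatives, with adjusted p from 0.0177 to 0.155, the last without transgenic arrays 3 and 4. It was lost without any 1 of CN arrays 1 to 3, CH arrays 1 and 4 or DH arrays 2 to 4 (adjusted p 0.0508 to 0.110). The 4 other probe sets of Gsn in the fit had the same sign, from -0.60 to -0.19, and none of them passed. It was the 1 gene called of 13 in its list, of monomer-binding, severing and capping genes, where those not called included Dstn (0.25 ± 0.11 for CH minus CN) and Wdr1 (0.37 ± 0.13 for DH minus CH), a cofactor of cofilin.

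Cross-linking and tropomyosin genes had the highest medians among the cytoskeleton lists shown: 0.10 for CH minus CN (16 of 22 above 0), 0.13 for DH minus CH (15 of 22) and 0.25 for DH minus CN (16 of 22), with 0 of 22 called in each. Myh9, the heavy chain of non-muscle myosin, had 0.31 ± 0.11 for CH minus CN and 0.39 ± 0.11 for DH minus CN, and Coro1b 0.37 ± 0.14 and Tpm3 0.32 ± 0.12 in those comparisons respectively. Nucleation genes of the Arp2/3 complex and its activators had medians of -0.02, 0.07 and 0.03 over 14 genes, with Arpc5l at -0.21 ± 0.13 for CH minus CN and Abi1 at -0.29 ± 0.11 for DH minus CH. Villin's partners in microvilli had 0.00, -0.09 and -0.11 over 8 genes, with radixin (Rdx), the linker of actin to the canalicular membrane, at -0.27 ± 0.10 for DH minus CH. None of these lists had a gene called in any of the 3 comparisons.

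SRF, its cofactors and its textbook targets had medians of 0.02 for CH minus CN, 0.01 for DH minus CH and 0.00 for DH minus CN over 17 of 23 genes, and none was called. Fos had 1.14 ± 0.82 for CH minus CN, and Junb 0.88 ± 0.39 and Ccn1 -0.82 ± 0.20 for DH minus CH. The chaperonin CCT, which folds newly made actin and tubulin, and prefoldin, which delivers them to it, had medians of 0.04, 0.06 and -0.0028 over 13 genes. Cct5 had -0.34 ± 0.14 and Cct4 -0.23 ± 0.09 for CH minus CN, neither of which passed, and Cct5 had 0.32 ± 0.13 for DH minus CH, which did not pass either. Of the other actins and actin-related genes 3 could be tested: Actr1a (-0.42 ± 0.14 for DH minus CN), Actl6a (-0.16 ± 0.17 for DH minus CN) and smooth muscle actin Acta2 (0.06 ± 0.29 for DH minus CH).

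**Figure D5:**
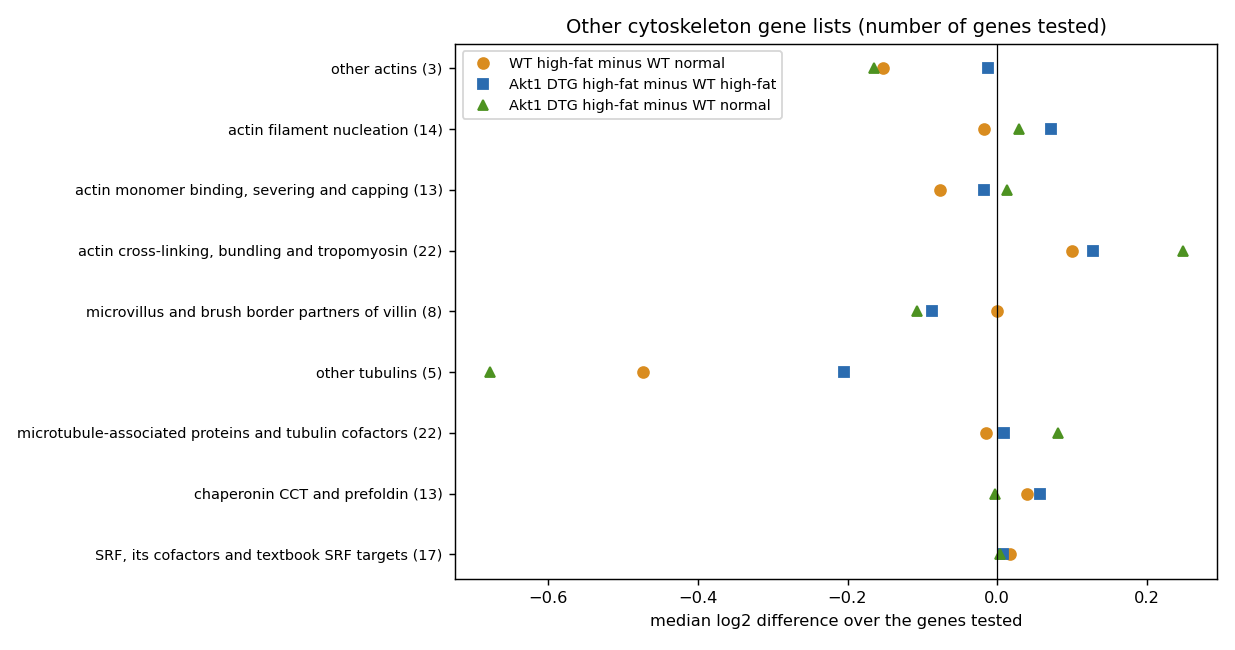
Median log2 difference (x axis) over the tested genes of 9 cytoskeleton lists outside the 10 members (y axis, number tested in brackets) in the 3 comparisons. Medians lie within 0.25 of 0 except for the other tubulins, at -0.47 for wild-type high-fat minus normal diet and -0.68 for transgenic minus normal diet.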

How the data were processed

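Per the labels' protocols, liver RNA was copied into cDNA by poly-dT priming and amplified and labelled in vitro. The deposited values are linear intensity values, 1 per probe set and array, made by the authors with MAS5, per the submitters' processing notes (version not given in the sources used here), which scales each array separately. No detection calls were used here. Gene symbols came from the platform annotation: 1 symbol was given for 20380 probe sets, more than 1 for 691 and none for 1555, besides 64 control probe sets. All 9 assigned member genes matched RefSeq's table (GRCm38.p6) by Entrez identifier.

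Signals under 1 were set to 1 (1386 values) before log2. Probe sets with 1 symbol and above the lowest 40% by mean log2 signal (a geometric mean over 58.2) were kept, 12228 in all. Limma 3.58.1 in R 4.3.3 (lmFit, eBayes with an intensity trend) fitted a mean per group over all 11 arrays, with two-sided p-values adjusted by Benjamini-Hochberg over all probe sets and a threshold of 0.05. The script was tested on simulated data. List genes were read by their brightest probe set and named where they passed, and otherwise from the 2 smallest p per list and comparison. Tubd1 and Tuba1a were named after their values were seen. Likeness to Actb and Tubb2a took the 5 highest correlations. The members and lists were chosen with earlier results of these data known. Alternatives were quantile normalization, log2(signal + 32), no dim filter, 1 probe set per gene, no intensity trend, only the groups compared, a block for the replicate number, and the omission of single arrays or of transgenic arrays 3 and 4. The values of 1 of the 10 cytoskeleton lists are not reported here beyond their part in the totals.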

Additional observations from a re-analysis of the deposited data

Results flagged for a closer look

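In 28 sets of 4 arrays (14 probe sets in CH and in DH), 3 had 1 array far from the other 3, by the gap to the nearest array as a share of the whole range (Dixon's test at 95%), and chance alone would flag about 1 in 20. Actg1 (1415779_s_at) was 8752 on transgenic array 3 against 3483 to 3863 on the other transgenic arrays. Tubb2a (1427347_s_at) was 1891 on the same array against 215 to 427. Tmsb10 (1437185_s_at) was 1944.5 on wild-type high-fat array 2 against 831 to 982 on the others. On transgenic array 3 the mean of the poly-A spikes was also lowest, at 113, and wild-type high-fat array 2 the highest leukocyte marker sum of its group, 12095. Their part in these values was not tested.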

How the results depend on the processing

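For the members, 42 differences were recomputed under the alternatives, 780 values in all, since with 1 probe set per gene the dimmer ones drop out. None moved by more than the SD within groups, but leaving out 1 array cannot move a difference that far. No dim filter, 1 probe set per gene, no intensity trend and only the groups compared leave each difference unchanged by design. Stability is therefore not read from this result. The sign differed from the reported one in 35 of the 780 values, and 28 of the 42 differences kept their sign throughout. The number of probe sets called was less stable. For CH minus CN it was 0, against 2 with the replicate block and 0 to 5 without single arrays (2 without CN array 2 and 5 without DH array 1). For DH minus CH it was 50, against 22 with no dim filter, 28 with 1 probe set per gene, 0 with no intensity trend, 6 with only the 2 groups compared, 4 without transgenic arrays 3 and 4, and 0 to 87 without single arrays: 5, 5 and 43 without CN arrays 1 to 3, 8, 87, 1 and 10 without CH arrays 1 to 4, and 84, 9, 0 and 1 without DH arrays 1 to 4. For DH minus CN it was 239, against 116 with no intensity trend, 31 without transgenic arrays 3 and 4, and 58 to 280 without single arrays, the lowest being 104, 72 and 58 without CN arrays 1 to 3, 60 without DH array 4 and 155 without CH array 1. Fewer probe sets or arrays enter several of these fits, and otherwise the cause was not tested. No member was called in any of them, except Actg1 for DH minus CN with the replicate block (0.89 ± 0.17). Deviations of same-numbered arrays correlated at 0.0797, 0.264, 0.137 and 0.122 between CH and DH and at -0.0521 to 0.0921 in the other comparisons, so not every number passed 0.1 and the labels give no shared litter or day: the numbers were not taken as pairs. Signal over background limits Vil1 and 1 probe set each of Tubb2a and Tmsb10. Tmsb10 1455946_x_at was in the fit but dim, with a geometric mean of 106 against the limit of 58.2. Its log2 difference for CH minus CN was 0.57 with log2(signal + 32), against the reported 0.76.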

Other observations

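The 2 probe sets annotated to both Gm6682 and Tuba1c belong to no single gene here. The brighter (1448232_x_at) read 417, 356 and 550 (CN), 236, 392, 75.9 and 304 (CH) and 223, 364, 484 and 299 (DH). The dimmer (1416128_at) read 99.0, 77.4 and 137 (CN), 34.3, 165, 91.1 and 85.4 (CH) and 66.7, 105, 143 and 171 (DH). All 3 groups overlapped at both.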
